A study of Mus musculus with 33 samples.

Results

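The mouse mitochondrial genome is a small circular DNA that carries 37 genes. All 37 had a row in the deposited table, and they were chosen by the prefix mt- of the gene name, 37 of 41565 named genes. They comprised 13 mRNA genes, 2 rRNA genes and 22 tRNA genes. Bulk RNA-seq was performed on 2 regions of the hypothalamus of C57BL/6 WT female mice, the posterior hypothalamus (PH, 16 libraries) and the preoptic area (POA, 17 libraries). The intact group was euthanized in diestrus before surgery (4 PH and 5 POA libraries), although its titles read sham, and the other groups were killed 14 days (6 and 6 libraries) or 4 months (6 and 6 libraries) after bilateral ovariectomy (OVX) at 3 to 4 months of age. The group at 4 months was therefore older than the intact group, and age and time after OVX cannot be told apart in it. Every group held libraries of both batches that the labels name, without saying what a batch was. 1 POA library at 14 days was labelled 14 alone in its genotype field.

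Mitochondrial transcription starts in the control region and copies nearly the whole circle from each strand into long precursors, in which tRNAs lie between most of the mRNAs and rRNAs. RNase P and the enzyme ELAC2 release the tRNAs, and this cutting frees the mRNAs and rRNAs on either side. Most mitochondrial mRNAs and both rRNAs then receive short A tails, the tRNAs do not, and *mt-Nd6* is known for lacking a stable tail. The libraries were made with a stranded mRNA kit, which captures RNA through A tails. The mRNAs encode 7 subunits of complex I (*mt-Nd1* to *mt-Nd6* and *mt-Nd4l*), cytochrome b of complex III (*mt-Cytb*), 3 subunits of complex IV (*mt-Co1* to *mt-Co3*) and 2 subunits of ATP synthase (*mt-Atp6* and *mt-Atp8*). *mt-Rnr1* and *mt-Rnr2* are the 12S and 16S RNAs of the mitochondrial ribosome. The nucleus encodes the other respiratory chain subunits and the proteins that copy, transcribe and translate mitochondrial DNA.

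28 genes lay on the plus strand of the reference and 9 on the minus strand (*mt-Nd6* and 8 tRNAs). Outside the control region, neighbours overlap, abut or lie a few bases apart, with a longer gap between *mt-Tc* and *mt-Tn*. The following sequences show examples (GRCm39, 5' to 3' on the strand of the genes). The first pair is shown because *mt-Te* and *mt-Tm* were the tRNAs that stood out most in 1 library described below, each directly before an mRNA: chrM:14041-14139 (minus strand) with the first 30 bases of *mt-Nd6* in capitals, and chrM:3845-3943 (plus strand) with the first 30 bases of *mt-Nd2* in capitals.
mt-Te to mt-Nd6: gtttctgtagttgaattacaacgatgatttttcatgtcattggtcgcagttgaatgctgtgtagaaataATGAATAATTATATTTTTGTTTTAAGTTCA
mt-Tm to mt-Nd2: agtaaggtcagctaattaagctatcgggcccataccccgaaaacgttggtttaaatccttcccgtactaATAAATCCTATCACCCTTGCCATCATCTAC
The next run, chrM:5089-5326 (minus strand), holds *mt-Ty*, *mt-Tc* and *mt-Tn*, which varied together. Its 34 bases in no gene are in capitals, and the longer stretch of them is known as the light-strand origin of replication.
mt-Ty, mt-Tc and mt-Tn: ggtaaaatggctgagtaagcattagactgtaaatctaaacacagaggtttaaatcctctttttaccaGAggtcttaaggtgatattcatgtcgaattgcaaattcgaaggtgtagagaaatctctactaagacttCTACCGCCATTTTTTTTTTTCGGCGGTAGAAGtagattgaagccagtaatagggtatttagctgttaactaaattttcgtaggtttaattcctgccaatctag
*mt-Atp8* and *mt-Atp6* share 43 bases and *mt-Nd4l* and *mt-Nd4* share 7, and each pair is made as 1 RNA although the table gives each gene its own value. The shared bases are in capitals in chrM:7897-7999 and chrM:10147-10193 (plus strand).
mt-Atp8 and mt-Atp6: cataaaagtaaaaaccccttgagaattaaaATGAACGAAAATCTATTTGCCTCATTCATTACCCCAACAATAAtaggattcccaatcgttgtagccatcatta
mt-Nd4l and mt-Nd4: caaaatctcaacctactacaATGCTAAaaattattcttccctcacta

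Levels are given as deposited, in a normalized linear signal whose lowest common value (the floor) was 22.09. Depth is unknown, since the table holds no read counts. The sum of a library was 47400000 to 54500000 in 15 PH libraries, 72900000 in replicate 5 of the PH 14-day group and 44500000 to 53900000 in the POA. None of the 8 markers of neurons, 6 of astrocytes, 6 of oligodendrocytes or 6 of microglia failed to reach 2 times the floor in at least 1 library of every group. Replicate 5 of that PH group stood apart, and each result that rests on it is given with and without it. In bulk tissue, fewer cells of a type and less RNA per cell cannot be told apart.

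Mitochondrial genes took 6.87% to 15.1% of the library sum in 15 PH libraries and 8.35% to 13.3% in the POA. Nearly all of it was mRNA: the mRNA share of the 15 PH libraries was 6.16% to 13.5%, the rRNA share 0.697% to 1.61% and the tRNA share 0.00667% to 0.0228%. By length, and with the nuclear copies described below added, *mt-Co1* had the highest median level over the 32 other libraries (945900 per kilobase above the floor). *mt-Atp6* (638500), *mt-Co2* (618200), *mt-Co3* (575600) and *mt-Cytb* (477300) followed. The complex I mRNAs lay lower on the same scale, from 375700 for *mt-Nd1* and 362700 for *mt-Nd4* down to 209700 for *mt-Nd4l* and 127000 for *mt-Nd3*. *mt-Nd2* (261500), *mt-Nd6* (220800) and *mt-Nd5* (213000) were between these, as were *mt-Atp8* (253800), *mt-Rnr2* (236100) and *mt-Rnr1* (212900). The highest and lowest of the 13 mRNAs thus differed 7.45-fold, or 9.31-fold without the copies. *mt-Nd6*, from the other strand, had a level per length close to those of *mt-Nd5*, *mt-Nd4l* and both rRNAs.

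The tRNAs had low deposited values. *mt-Tp* (proline) had a median deposited value of 1932 over the 32 libraries, *mt-Ts1* (serine) 945. *mt-Tc* (594.4), *mt-Ty* (536.8), *mt-Tn* (475.4) and *mt-Te* (glutamate, 354.8) followed on that scale, all on the minus strand. Over all 33 libraries *mt-Te* was among the 3 tRNAs with the highest mean, through its value in replicate 5 of the PH 14-day group. 7 tRNAs did not reach 2 times the floor in every library, and *mt-Td* (aspartate) reached it in 9 of 33. *mt-Td* did not enter the POA tests, which left 36 genes there against 37 for the PH.

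The share did not separate the groups. In the PH, the intact libraries held 15.1%, 11.6%, 9.72% and 9.70% mitochondrial signal. After 14 days the lowest, median and highest shares were 9.89%, 11.4% and 33.4%, or 9.89%, 11.3% and 13.4% without replicate 5. After 4 months they were 6.87%, 10.3% and 14.1%. The 3 groups overlapped over both batches, and the single library at 33.4% was above every other library of either region. In batch 2 alone, with 2 intact libraries and 3 in each other group, the groups did not overlap. The ranges there were 9.70% to 9.72% intact, 9.89% to 33.4% after 14 days and 6.87% to 9.335% after 4 months. Without replicate 5 the 14-day range ended at 10.2%. In batch 1 the ranges overlapped, at 11.6% to 15.1%, 11.3% to 13.4% and 11.2% to 14.1%. These differences were not tested.

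In the POA, the intact libraries held 12.03%, 12.7%, 9.16%, 8.35% and 9.79%. After 14 days the shares ran from 8.45% to 12.7% with a median of 11.2%, and after 4 months from 9.23% to 13.3% with a median of 10.3%. Within each POA group the high values were the batch 1 libraries.

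**Figure D1:**
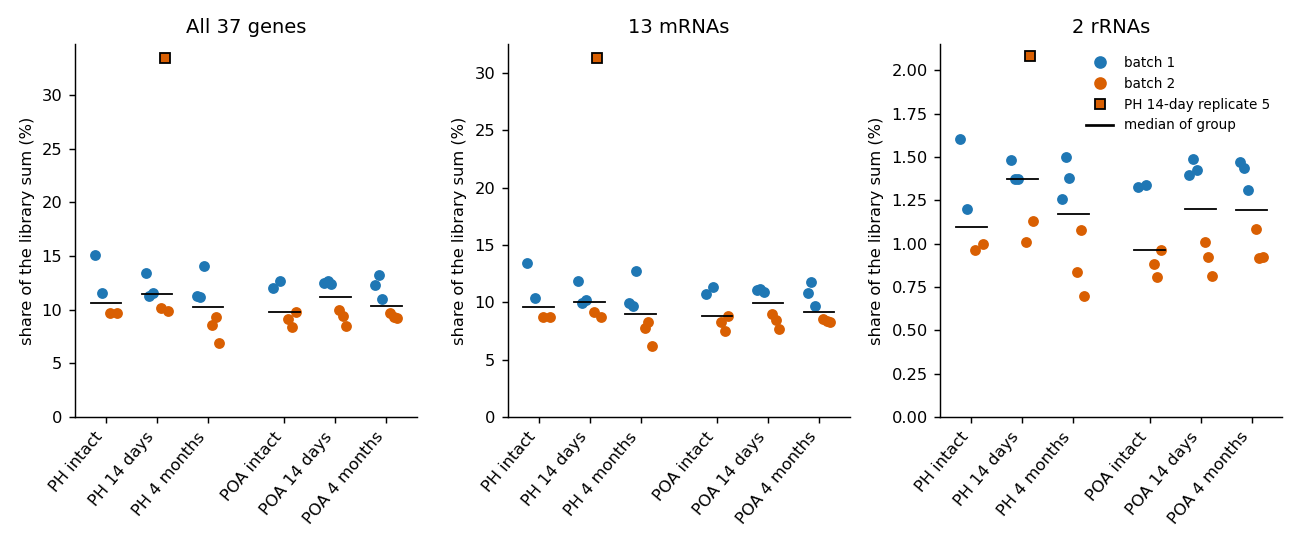
Share of the library sum (%, linear axis from 0) taken by all 37 mitochondrial genes, the 13 mRNAs and the 2 rRNAs in each library, by region and group. Points are libraries, blue for batch 1 and orange for batch 2, black lines are group medians, and the square is PH 14-day replicate 5, at 33.4% for all genes against 6.87% to 15.1% in the other 15 PH libraries. Batch 2 points lie below batch 1 points in the POA panels.

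Replicate 5 of the PH 14-day group had the highest value of the 16 PH libraries for 34 of 37 mitochondrial genes, and those 34 were also above all POA libraries. Values of all 37 are in the plot of genes in genome order. Of all 21984 genes tested in the PH, 24.6% were highest and 25.9% were lowest in that library. *mt-Tc*, *mt-Ty* and *mt-Tk* were the 3 exceptions. The values of *mt-Nd6* ran from 63190 through a median of 119300 to 199900 in the other 15 PH libraries, and it was 666200 in replicate 5. *mt-Co1* ran from 977100 through 1431000 to 1862000 and was 3346000. *mt-Rnr1* ran from 128200 through 211900 to 290400 and was 476200. With 1 library there is no test of these differences.

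The excess differed between RNA classes and between genes of a class. Against the median of the other 15, the log2 difference had a median of 2.48 over the mRNAs, 1.30 over the rRNAs, 2.07 over the tRNAs and -0.003 over all genes tested. Among complex IV mRNAs the fold was 2.34 for *mt-Co1*, 3.07 for *mt-Co3* and 7.66 for *mt-Co2*. It was 3.81 for *mt-Cytb*, and in complex I it ran from 3.94 for *mt-Nd3* to 8.06 for *mt-Nd4l* and 8.69 for *mt-Nd2*. *mt-Atp6* stood 4.81-fold and *mt-Atp8* 14.1-fold above the median, so that *mt-Atp8* had the highest level per length in that library (3442000 per kilobase above the floor).

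The ratio of rRNA to mRNA was accordingly low there. The 2 rRNAs summed to 6.66 per 100 of mRNA signal in replicate 5, against 10.8 to 15.5 in the other 15 PH libraries and 10.6 to 13.7 in the POA. Among tRNAs, *mt-Te* was 24800 against 160.7 to 1185 in the other 15 (70.7-fold above their median). *mt-Tm* (methionine) was 16.4-fold and *mt-Tq* (glutamine) 13.6-fold above, while *mt-Tc* (cysteine) was 1.70-fold and *mt-Ty* (tyrosine) 1.28-fold above. *mt-Te* lies directly before *mt-Nd6*, and *mt-Tm* directly before *mt-Nd2*, as the sequences above show. Other tRNAs just before an mRNA on the plus strand stood less far above. They ran from 1.41-fold for *mt-Tk* (before *mt-Atp8*) to 8.20-fold for *mt-Tg* (before *mt-Nd3*). *mt-Tq*, on the minus strand, lies before no mRNA of that strand. *mt-Tc* and *mt-Ty*, also on the minus strand, did not share the excess of *mt-Te*.

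Genes that the nucleus supplies to mitochondria did not share that excess as a group. In replicate 5 the median log2 difference was 0.001 over 71 nuclear respiratory chain subunits, of which 29 were highest and 28 lowest in that library. It was -0.15 over 78 mitochondrial ribosomal proteins and 0.25 over 18 genes of mitochondrial DNA maintenance and transcription. Of the marker lists, the median was 0.37 for neurons (sum 344300 against 195500 to 264600 in the other PH libraries), -0.21 for oligodendrocytes, -0.36 for microglia, 0.10 for astrocytes, 0.02 for endothelial cells and -0.42 for pituitary. It was 1.52 for choroid plexus markers (sum 35510, within the 2616 to 80510 of the others) and -0.98 for red cell markers. Their part in the mitochondrial values was not tested.

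**Figure D2:**
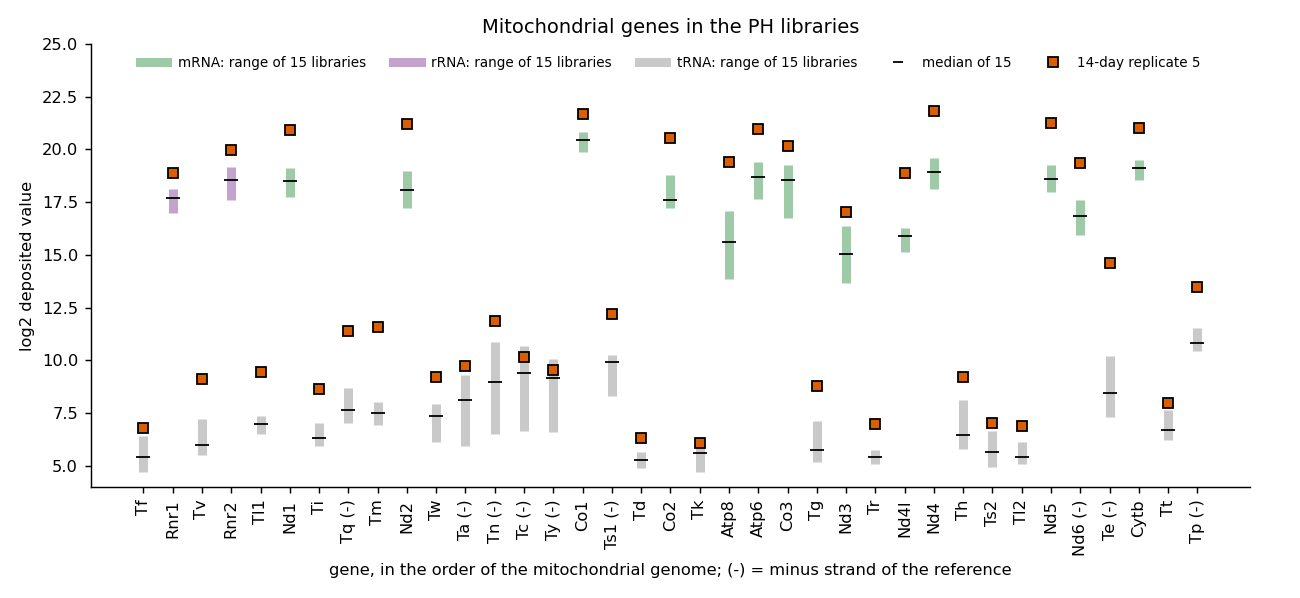
Log2 of the deposited value of the 37 mitochondrial genes in the PH, in the order of the mitochondrial genome, with (-) marking genes on the minus strand. Bars span 15 libraries (green mRNA, purple rRNA, grey tRNA), black ticks are their medians, and squares are 14-day replicate 5, above the bar for 34 of 37 genes and farthest above it for *mt-Te*.

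To see whether loss of the ovaries changed mitochondrial RNA, each OVX group was compared with the intact group and the OVX groups with each other by limma on log2 values, with 1 surrogate variable (SV1) as the study's own fit had. No mitochondrial gene passed an adjusted *P* of 0.05 in any of these 6 comparisons. In the PH, 0 of 37 were called after 14 days (0% of all 21984 genes tested were called, and 667 had an unadjusted *P* under 0.05), 0 of 37 after 4 months (0.0318%, 1333) and 0 of 37 between 4 months and 14 days (0.0091%, 899). In the POA, 0 of 36 were called after 14 days (0.00468% of all 21356 genes, 1310), 0 of 36 after 4 months (0.0937%, 1816) and 0 of 36 between 4 months and 14 days (0.0281%, 1091). With replicate 5 of the PH 14-day group left out, the PH counts were again 0 of 37, against 0%, 0.0409% and 0.00455% of all genes, with 771, 1579 and 1139 genes at an unadjusted *P* under 0.05. These calls were few among all genes too, so the counts of 0 are near the background.

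The median log2 fold change of the 13 mRNAs was -0.03 in the PH after 14 days, -0.13 after 4 months and -0.10 between 4 months and 14 days. Without replicate 5 it was -0.07, -0.13 and -0.07. The direction of the first turned without intact replicate 3 (0.01) and that of the last without 14-day replicate 4 (0.01), and over all single libraries left out the first ran from -0.11 and the last from -0.17. In the POA the medians were -0.04, -0.05 and 0.01, the last running from -0.06 to 0.04 with single libraries left out. At an unadjusted *P* under 0.05 there were 2 mRNAs in the PH after 4 months (*mt-Atp6* and *mt-Atp8*), 1 in the PH between 4 months and 14 days (*mt-Atp6*) and none in the other 4 comparisons. No rRNA was among them. *mt-Rnr1* values in the PH were 290400, 211900, 159600 and 169100 in intact libraries. They ran from 177200 through 246800 to 476200 after 14 days (177200 through 243500 to 258800 without replicate 5) and from 128200 through 208300 to 277300 after 4 months. The groups overlapped throughout, with a log2 fold change of 0.07 after 14 days (95% interval -0.15 to 0.28, adjusted *P* = 0.9998) and 0.05 after 4 months (-0.16 to 0.26, adjusted *P* = 0.970).

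*mt-Rnr2* behaved likewise in the PH, with intact values of 584800, 385200, 320900 and 325800 and medians of 465900 after 14 days and 374700 after 4 months. *mt-Nd6* was 171600, 130400, 109900 and 106900 in intact PH libraries, with medians of 133100 after 14 days (122800 without replicate 5) and 101000 after 4 months, inside ranges that overlapped. *mt-Co1*, the mRNA highest per length, was 1862000, 1504000, 1256000 and 1232000 in intact libraries with medians of 1452000 and 1313000 after OVX, and its log2 fold change after 4 months was -0.10 (SE 0.07, adjusted *P* = 0.889). *mt-Nd3*, the lowest per length, had intact values of 84810, 33970, 32070 and 22760 and medians of 48670 and 34990. The groups overlapped for all 4 of these genes.

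In the POA, *mt-Nd6* was 139000, 145000, 101800, 91440 and 105200 in intact libraries, ran from 84210 through 125700 to 156900 after 14 days and from 93590 through 116200 to 149900 after 4 months. Its log2 fold change was -0.02 (SE 0.04, adjusted *P* = 0.965) after 14 days and -0.07 (SE 0.04, adjusted *P* = 0.720) after 4 months. The 95% intervals were -0.11 to 0.07 and -0.16 to 0.02, and they hold for change beyond SV1 only. *mt-Rnr1* was 231600, 233600, 153800, 143300 and 161600 in intact POA libraries, with medians of 218800 after 14 days and 216000 after 4 months, again overlapping, and a log2 fold change of 0.09 after 4 months (SE 0.05, adjusted *P* = 0.680).

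In the PH the tRNAs had wide intervals. In that region after 4 months 19 of 22 tRNAs had a log2 fold change below 0 (median -0.33), 4 of them at an unadjusted *P* under 0.05 and none after adjustment. Of all genes tested there 52.8% were below 0 and 6.06% had an unadjusted *P* under 0.05, with a median of -0.01. *mt-Tn* (asparagine) was 1889, 439.8, 645.4 and 614 in intact libraries and ran from 90.62 through 438.8 to 499.3 after 4 months, so the groups overlapped through 1 intact library. Its log2 fold change was -1.11 (SE 0.37, adjusted *P* = 0.638), and leaving out 1 library at a time kept it between -1.39 and -0.90. Within batch 1 it was -0.97 and within batch 2 -1.52. *mt-Ta* (alanine) was 483.6, 231.6, 342.5 and 382 in intact libraries against 61.97 through 213.4 to 274.7, with a log2 fold change of -0.90 (SE 0.35, adjusted *P* = 0.728). *mt-Tf* (phenylalanine) was 66.53, 40.31, 52.43 and 57.51 against 26.07 through 33.49 to 46.22, values close to the floor, with -0.62 (SE 0.18, adjusted *P* = 0.445). *mt-Tw* (tryptophan) was the fourth, at -0.52 (SE 0.21, adjusted *P* = 0.730). The lowest 4-month values of *mt-Tn* and *mt-Ta* came from 1 library, replicate 6.

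In the POA after 4 months 15 of 21 were below 0 (median -0.12), with 4 at an unadjusted *P* under 0.05: *mt-Tl1* (-0.48), *mt-Ta* (-0.35), *mt-Ts2* (-0.39) and *mt-Tp*. Of all genes tested 53.5% were below 0 and 8.5% had an unadjusted *P* under 0.05. *mt-Tp* had a log2 fold change of 0.41 (SE 0.12, adjusted *P* = 0.306), with a range of 1497 to 1959 in intact libraries and 1990 to 2707 after 4 months. These ranges did not overlap, but how many of all genes tested were separated in this way was not counted. The gene did not pass the test over all genes.

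SV1 followed the mitochondrial level. It had a correlation of 0.98 with the mean log2 value of the 13 mRNAs over the 16 PH libraries, 0.943 without replicate 5 and 0.944 over the 17 POA libraries. The fitted changes are therefore changes beyond SV1, a variable estimated from the same libraries. Their intervals and the counts of 0 do not bound a change of the shared mitochondrial level that SV1 took up. The mean log2 value of the 13 mRNAs had an SD within groups of 0.41 in the PH without replicate 5 and 0.34 in the POA. Without SV1 the median mRNA change in the PH was 0.40 after 14 days, and it was -0.03 when replicate 5 was left out as well. No mitochondrial gene was called in either fit. Taken as shares, with no covariate, the PH mRNAs had medians of 9.55% in intact libraries and 8.95% after 4 months. In batch 1 the ranges were 10.4% to 13.5% and 9.66% to 12.7%, in batch 2 8.69% to 8.74% and 6.16% to 8.24%. The POA medians were 8.81% in intact libraries, 9.93% after 14 days and 9.13% after 4 months. They were higher after OVX, whereas the medians fitted with SV1 were negative. These shares were not tested.

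**Figure D3:**
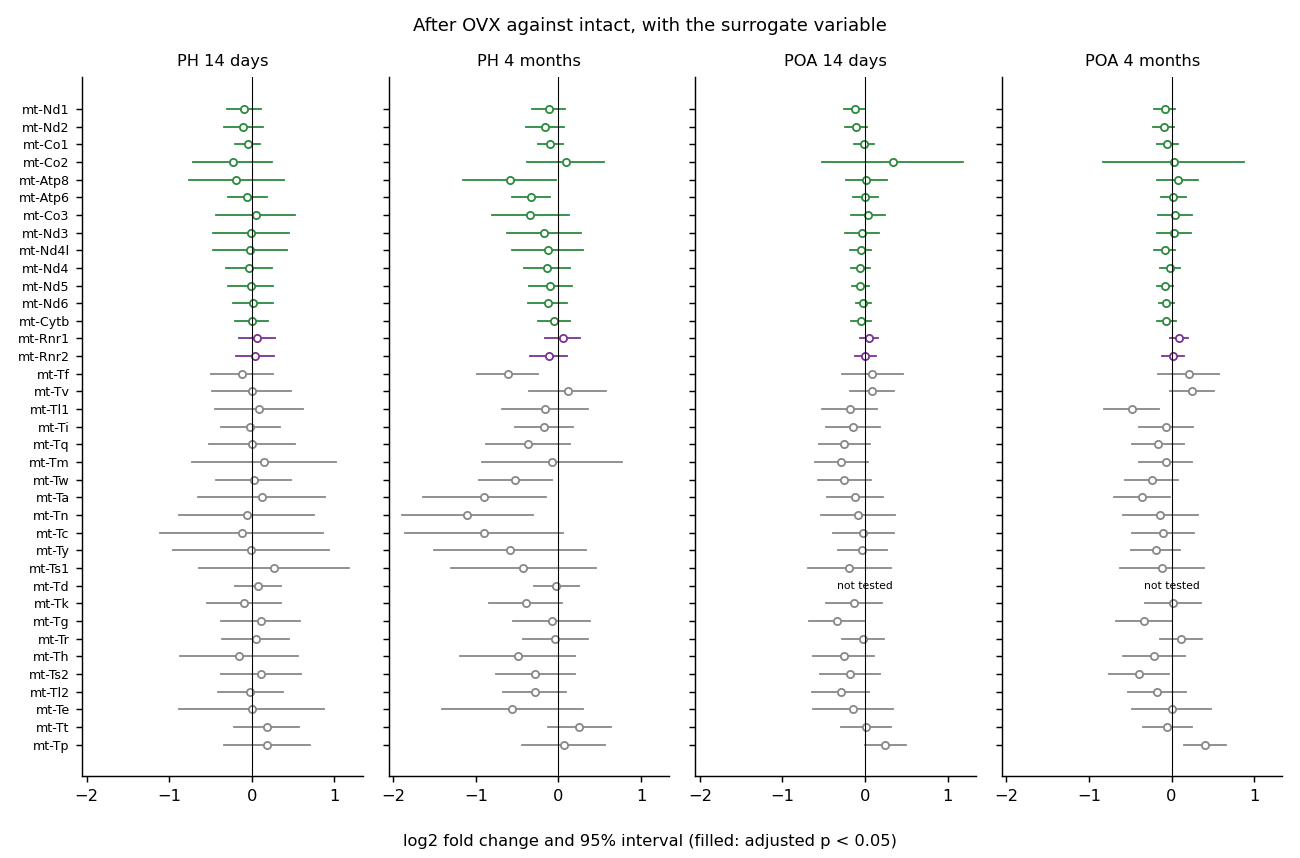
Log2 fold change (points) and 95% interval (lines) of each mitochondrial gene after OVX against intact, from limma with SV1, in the PH and POA after 14 days and 4 months. Green marks mRNAs, purple rRNAs and grey tRNAs, and open points did not pass an adjusted *P* of 0.05. Every point is open, the mRNA medians lie between -0.13 and -0.03, and the widest intervals belong to *mt-Tc* in the PH and *mt-Co2* in the POA.

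The response to OVX was also compared between regions in 1 fit of all 33 libraries. That fit treated the libraries as independent, although the paper took both regions from its females. 0 of 37 mitochondrial genes had a called PH to POA difference after 14 days (0.00452% of 22132 genes were called, 662 at an unadjusted *P* under 0.05) and 0 of 37 after 4 months (0.00904%, 798). The median difference of the mRNA changes, PH minus POA, was 0.15 after 14 days and -0.04 after 4 months. Without replicate 5 of the PH 14-day group it was -0.03 and -0.09, so the 14-day direction turned with that library.

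Genes of the nucleus that act in mitochondria gave the same counts after OVX. None of 18 genes of mitochondrial DNA maintenance and transcription, 20 of mitochondrial RNA processing, 14 translation factors, 12 regulators of mitochondrial biogenesis, 78 mitochondrial ribosomal proteins or 71 nuclear respiratory chain subunits was called in the PH or the POA at either time. Their median log2 fold changes after 4 months ran from -0.05 to 0.02 in the PH and from -0.03 to 0.04 in the POA. Of all genes tested, 0% and 0.0318% were called in the PH after 14 days and 4 months. In the POA it was 0.00468% and 0.0937%, so these counts too are near the background.

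Mitochondrial genes differed between batches. In the POA, with group in the model, 31 of 36 were called between batches and all 31 were lower in batch 2, against 39.8% of all 21356 genes called in either direction and 19.7% called lower. They were 12 of 13 mRNAs, both rRNAs and 17 of 21 tRNAs. The median log2 difference, batch 2 minus batch 1, was -0.54 over the mRNAs, from -0.995 for *mt-Nd3* to -0.25 for *mt-Nd4l*, and -0.52 over the tRNAs. *mt-Nd2* (-0.65), *mt-Nd1* (-0.54), *mt-Nd4* (-0.54) and *mt-Nd5* (-0.50) of complex I, *mt-Cytb* (-0.43), *mt-Co3* (-0.60), *mt-Atp6* (-0.63) and *mt-Atp8* (-0.88) lay between these. Not called were *mt-Co2* (-0.48, adjusted *P* = 0.270), which nearly shares its sequence with a nuclear copy, and *mt-Tl1*, *mt-Tm*, *mt-Ts1* and *mt-Tp*.

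The values separated cleanly for part of the genes. *mt-Rnr1* ran from 231600 through 260100 to 268800 in 8 batch 1 libraries and from 128700 through 160200 to 194900 in 9 batch 2 libraries of the POA, a log2 difference of -0.65 (SE 0.06, adjusted *P* = 1.167e-07). *mt-Rnr2* ran from 409300 through 485200 to 530000 against 233300 through 290300 to 361900 (-0.71, SE 0.07, adjusted *P* = 5.007e-07). *mt-Nd6* ran from 133700 through 147000 to 156900 against 84210 through 98640 to 106400 (-0.58, SE 0.05, adjusted *P* = 2.759e-08). For 12 of 36 genes every batch 2 library was below every batch 1 library, against 6.4% of all genes. They were both rRNAs, *mt-Nd1* to *mt-Nd6*, *mt-Cytb* and *mt-Atp6* among the longer RNAs, and *mt-Tg* (glycine) and *mt-Th* (histidine). *mt-Nd4l*, *mt-Co1*, *mt-Co3* and *mt-Atp8* were called but overlapped. *mt-Co1* ran from 1345000 to 1624000 against 1037000 to 1382000 (-0.33, SE 0.06, adjusted *P* = 9.847e-05).

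tRNA differences spread more than those of mRNAs. *mt-Te* ran from 318.9 through 748.1 to 1013 in batch 1 and from 194.8 through 307.9 to 382.3 in batch 2 of the POA (-1.20, SE 0.20, adjusted *P* = 0.000155). *mt-Th* differed by -1.12, *mt-Tg* by -1.04 and *mt-Tn* by -0.996. The other 13 called tRNAs ran from -0.80 for *mt-Tc* to -0.33 for *mt-Tt*, whereas *mt-Tp*, the tRNA with the highest mean, differed by -0.06 (95% interval -0.27 to 0.14). On the minus strand *mt-Tp* is the gene nearest the control region, and *mt-Te* is the next.

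In the PH the count depended on 1 library. With all 16, 0 of 37 mitochondrial genes were called between batches by limma, 3 at an unadjusted *P* under 0.05 (*mt-Rnr1*, *mt-Ty* and *mt-Nd3*). Of all genes 1.28% were called, 0.496% called lower and 16.8% had an unadjusted *P* under 0.05, a larger share than 3 of 37. 0 of 37 were non-overlapping, against 0.223% of all genes. Without replicate 5 of the 14-day group, which belonged to batch 2, 18 of 37 were called and all 18 were lower in batch 2, against 24.3% of all genes called and 11% called lower. They were 11 of 13 mRNAs, both rRNAs and 5 of 22 tRNAs (*mt-Tv*, *mt-Ti*, *mt-Tq*, *mt-Td* and *mt-Tt*). *mt-Co3* (adjusted *P* = 0.103) and *mt-Atp8* (adjusted *P* = 0.154) were not called. 7 of 37 did not overlap between batches (both rRNAs, *mt-Nd1*, *mt-Nd2*, *mt-Nd3*, *mt-Co1* and *mt-Cytb*), against 2.5% of all genes.

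The size of the PH difference without that library was near that of the POA. *mt-Rnr1* ran from 211900 through 254400 to 290400 in 8 batch 1 libraries and from 128200 through 169100 to 190300 in 7 batch 2 libraries (-0.60, SE 0.08, adjusted *P* = 9.321e-05), and *mt-Rnr2* differed by -0.62 (adjusted *P* = 0.0005177). The mRNA median was -0.55, from -1.05 for *mt-Nd3* to -0.31 for *mt-Nd4l*. With replicate 5 in the fit the mRNA median was -0.20. The paper states that both regions were taken from its females, but the labels do not say which PH and POA libraries share a mouse. In terms of share, batch 1 held 11.2% to 15.1% and batch 2 6.87% to 10.2% in the 15 PH libraries, and 11.02% to 13.3% and 8.35% to 9.96% in the POA.

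**Figure D4:**
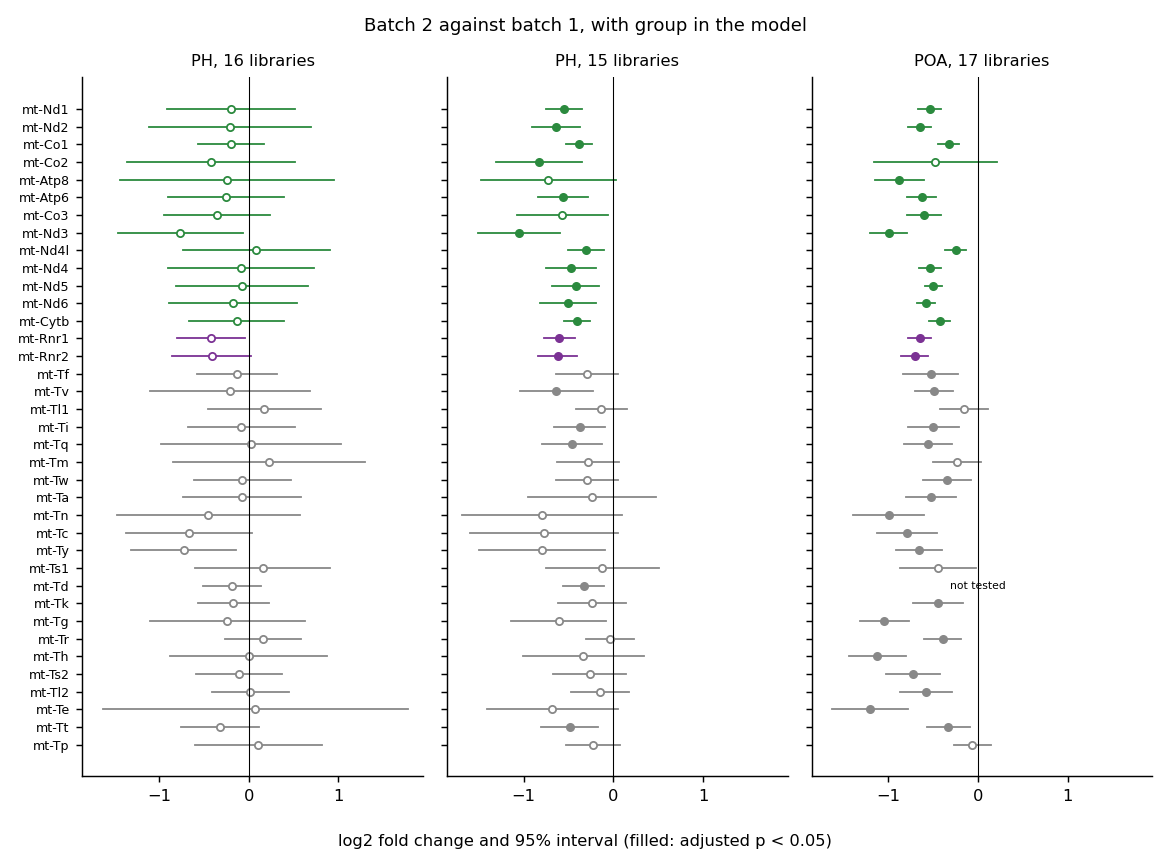
Log2 difference, batch 2 minus batch 1, and 95% interval of each mitochondrial gene, from limma with group in the model, in the PH with all 16 libraries, in the PH with 14-day replicate 5 left out (15 libraries) and in the POA (17 libraries). Filled points passed an adjusted *P* of 0.05: 0, 18 and 31 genes, all of them below 0.

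Nuclear genes with a mitochondrial role moved both ways between batches, as did all genes tested. In the POA 4277 of all 21356 genes were called higher and 4213 lower in batch 2, 39.8% in all. In the POA, of 18 genes of mitochondrial DNA maintenance and transcription 7 were called lower and 2 higher in batch 2, with a median of -0.11. *Tfam*, which packages mitochondrial DNA and aids transcription, was lower (-0.33), as were the transcription factor *Tfb2m* (-0.34), *Tfb1m* (-0.18), the termination factor family genes *Mterf1a* (-0.31), *Mterf2* (-0.23) and *Mterf3* (-0.22) and the single-stranded DNA binding protein *Ssbp1* (-0.27). *Polrmt*, the mitochondrial RNA polymerase, was higher (0.35), as was the topoisomerase *Top1mt* (0.18). Of 20 genes of mitochondrial RNA processing and stability 9 were lower and 4 higher, with a median of -0.14. The poly(A) polymerase *Mtpap* (-0.37), *Slirp* (-0.37), which stabilizes mitochondrial mRNAs, *Grsf1* (-0.36), the RNase P subunits *Trmt10c* (-0.36) and *Prorp* (-0.19) and the nuclease *Pnpt1* (-0.32) were lower, with *Rexo2* (-0.23), *Fastkd1* (-0.21) and *Ptcd2* (-0.19). The tRNA 3' end nuclease *Elac2* (0.21) was higher, with *Fastk* (0.50), *Tbrg4* (0.42) and *Ptcd1* (0.21).

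Of 12 regulators of mitochondrial biogenesis, *Ppargc1a* (-0.40), *Esrrg* (-0.30), *Sirt1* (-0.27), *Gabpa* (-0.21) and *Yy1* (-0.16) were lower and *Esrra* (0.51), *Pprc1* (0.41), *Sirt3* (0.32) and *Ppargc1b* (0.21) higher in POA batch 2. The 71 nuclear respiratory chain subunits had 20 called lower and 17 higher (median 0.00), and the 78 mitochondrial ribosomal proteins 24 lower and 13 higher (median -0.03). Of 14 translation factors 4 were lower and 3 higher. These counts stand against 39.8% of all POA genes called between batches, in both directions. Beside these stand the mitochondrially encoded mRNAs, with 12 of 13 lower and 0 higher. The difference between the lists was not tested.

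Cell type markers also differed between POA batches, as did 39.8% of all 21356 genes tested (4277 higher and 4213 lower in batch 2). The marker lists are too short to be set against that share. 4 of 8 neuronal markers were lower and 2 higher (summed level 223700 to 251600 in batch 1 and 168200 to 227900 in batch 2). Of 6 microglial markers 4 were higher and 2 lower (12370 to 14070 and 11940 to 15190), of 6 oligodendrocyte markers 3 higher and 1 lower (260900 to 314000 and 263500 to 380700), of 6 astrocyte markers 2 higher (72980 to 83700 and 70720 to 86440) and of 5 endothelial markers 1 higher and 2 lower. None of the choroid plexus, red cell or pituitary markers was called. Their part in the mitochondrial difference was not tested.

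The 13 mRNAs rose and fell together between libraries of a group. The median correlation between pairs of mRNAs, taken on deviations from group means, was 0.934 over 78 pairs and 16 PH libraries, 0.886 over 15 libraries and 0.955 over 17 POA libraries. With batch also removed it was 0.776 over the 15 PH libraries and 0.833 in the POA. These points share libraries, batches and the normalization of the table. Nuclear respiratory chain subunits had a median correlation with the mean mitochondrial mRNA of -0.06 in the PH and -0.25 without replicate 5. In the POA it was 0.19, and 0.512 with batch removed. Over all protein-coding nuclear genes these medians were -0.05, -0.04, -0.03 and 0.09. Single subunits ran from -0.966 to 0.960 over the 16 PH libraries and from -0.827 to 0.942 in the POA.

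*mt-Ta*, *mt-Tn*, *mt-Tc* and *mt-Ty*, neighbours on the minus strand, had high correlations with each other on the same deviations. Their 6 pairs had a median correlation of 0.906 over 15 PH libraries, against 0.580 for the other 225 tRNA pairs, and 0.935 against 0.742 in the POA. These 4 were picked after their values were seen. *mt-Tw*, which lies beside *mt-Ta* on the plus strand, had a median correlation with them of 0.799 over the 15 PH libraries and 0.806 over the 17 POA libraries.

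The nuclear genes most like the mean of the 13 mRNAs over the 16 PH libraries were *Golm2* (0.983), *Cfap36* (0.983), *Calu* (0.983), *Syncrip* (0.981) and *5730455P16Rik* (0.980), and the most opposite were *Chpf2* (-0.987), *Ddr1* (-0.983), *Cdip1* (-0.983), *Poldip3* (-0.981) and *Pi4k2a* (-0.980). In the POA they were *Lipo3* (0.979), *Sumo2* (0.974), *Suz12* (0.973), *Sdhaf3* (0.973) and *Cpsf2* (0.971), and *Faap100* (-0.972), *Ankrd13b* (-0.969), *Epha10* (-0.967), *Slco2b1* (-0.966) and *Cdh24* (-0.965). No gene stood in the lists of both regions, but the PH genes kept their sign in the POA. There the 5 most like ran from 0.867 (*Cfap36*) to 0.944 (*Golm2*) and the 5 most opposite from -0.927 (*Chpf2*) to -0.558 (*Poldip3*). Apart from *Chpf2*, the PH list depended on replicate 5, and the POA list depended on batch. Without replicate 5 the first 5 in the PH were *Zfp946* (0.978), *Fam133b* (0.968), *Tceal8* (0.967), *Nxt2* (0.964) and *Zfp606* (0.962), while *Golm2* was at 0.957 and *Chpf2* at -0.968. With batch removed the first 3 in the POA were *Txndc15* (0.910), *Pgm1* (0.900) and *Slirp* (0.899), and *Lipo3* was at 0.876. Of the 5 genes most opposite in the PH, *Cdip1* (0.591), *Poldip3* (0.618) and *Pi4k2a* (0.641) then turned in the POA. *Chpf2* (-0.556) and *Ddr1* (-0.328) did not, and the 5 most like kept their sign, from 0.245 (*Cfap36*) to 0.690 (*Golm2*).

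Several mitochondrial genes have near-identical copies in the nuclear genome, and the table gave some of the copies high values. A run of copies lies on chromosome 1 of GRCm39 (minus strand) between 24650616 and 24655278. *Gm28661* (681 bases) was identical to *mt-Co2*, *Gm10925* (678 bases) to *mt-Atp6* and *Gm28437* (783 bases) to *mt-Co3* over their lengths. *Gm29216* differed from part of *mt-Co1* by 1 base in 483 and *Gm28438* from *mt-Nd3* by 1 base in 345. Each difference is shown in capitals with its neighbours. Read pairs that lie wholly inside the match and miss that base cannot be told apart. *Gm29216* also has 9 bases outside the match. The differences are A1066T in *mt-Co1* (chrM:6390-6413) and *Gm29216* (chr1:24655246-24655269), and T3C in *mt-Nd3* (chrM:9459-9481) and *Gm28438* (chr1:24652178-24652200). The mitochondrial base comes first, and positions are counted from 1 at the first base of the mitochondrial gene.
mt-Co1: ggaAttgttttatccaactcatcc
Gm29216: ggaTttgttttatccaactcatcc
mt-Nd3: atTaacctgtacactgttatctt
Gm28438: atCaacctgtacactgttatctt

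*Gm28661* took 5.22% to 70.6% of its sum with *mt-Co2* in 15 PH libraries and 19.4% to 79.2% in the POA, with medians of 49.5% and 44.8%. Around the mean of each batch, *mt-Co2* alone had an SD of 0.43 (PH, n = 15) and 0.64 (POA, n = 17) on the log2 scale. The sum had an SD of 0.24 and 0.22 on the same measure. *Gm28437* took 3.15% to 58.7% of its sum with *mt-Co3* in the PH and 10.6% to 21.0% in the POA. *Gm28438* took 16.4% to 42.8% with *mt-Nd3* and *Gm29216* 5.36% to 8.30% with *mt-Co1* in the PH. In the PH library that stood apart, *Gm28661* was 2042 against 25130 or more elsewhere, and *Gm28437* (21.5), *Gm28438* (19.5) and *Gm10925* (15.7) were at or below the floor. *Gm29216* was 390000 there, against 65720 to 137800 elsewhere. Outside that library *Gm10925* ran from 19.58 to 77740, and it was also below the floor in PH 4-month replicate 3.

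The division between a gene and its identical copy was thus not the same in every library. With the copies added, the fold of replicate 5 over the median of the other 15 fell from 7.66 to 3.35 for *mt-Co2*, from 3.07 to 2.45 for *mt-Co3* and from 3.94 to 2.98 for *mt-Nd3*, and was 2.42 for *mt-Co1*. In the POA, 32 of 36 genes were called between batches with the copies added, against 31 without. More distant copies on chromosomes 2 and 13 (95.2% to 97.6% identical) had low medians, from 33.4 for *Gm13339* to 296.3 for *Gm13340*.

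**Figure D5:**
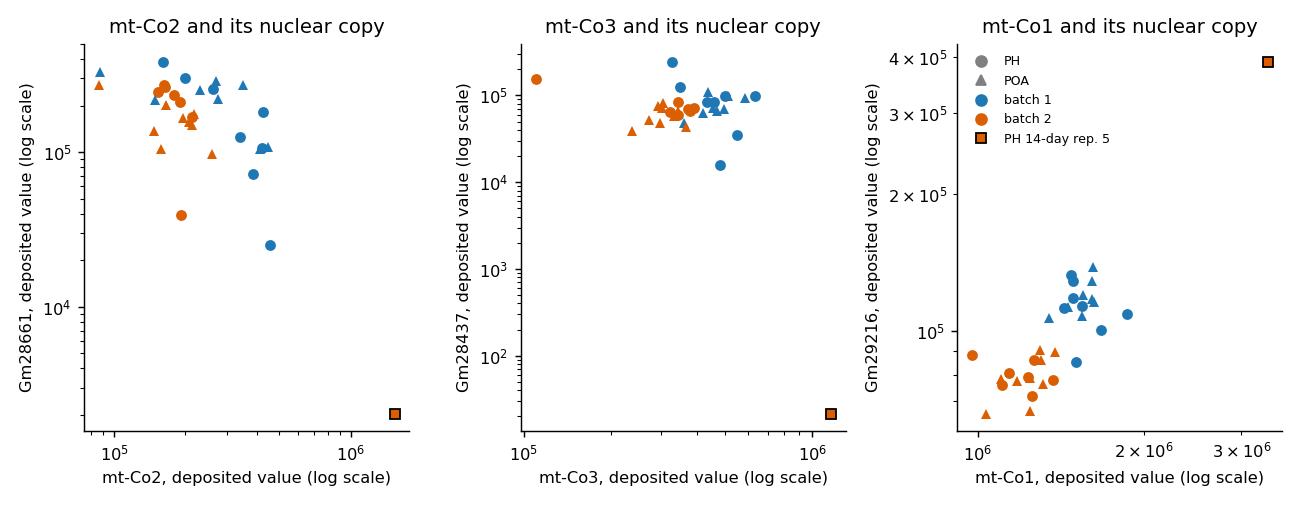
Deposited value of *mt-Co2*, *mt-Co3* and *mt-Co1* (x axis, log scale) and of their nuclear copies *Gm28661*, *Gm28437* and *Gm29216* (y axis, log scale) in each library, circles for the PH, triangles for the POA, blue for batch 1 and orange for batch 2. The square is PH 14-day replicate 5, where the copies of *mt-Co2* and *mt-Co3* are lowest (2042 and 21.5) and that of *mt-Co1* is highest (390000).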

How the data were processed

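The deposited table held 42824 rows for 33 libraries. 1259 rows without a name were left out. Per the labels and the study's methods, the authors extracted RNA from flash-frozen tissue, prepared libraries with a stranded mRNA kit, sequenced 50 base paired reads, quantified them with kallisto against GENCODE M30 on mm39 and used DESeq2 with a surrogate variable. The deposited values are a normalized signal on a linear scale, not counts (0.000219% of the values were whole), and the step that set the floor of 22.09 is not given in the sources used here. A count test was therefore not run, although the study's methods used one.

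Log2 values were fitted per region in limma 3.58.1 (R 4.3.3, trend and robust options, statmod 1.5.0) with 3 groups and SV1, estimated in 5 rounds of iterative reweighting. The regional interaction used all 33 libraries. Batches were compared in a fit of group and batch. Genes had to reach 2 times the floor in at least 4 PH or 5 POA libraries, and the adjustment of *P* values (Benjamini-Hochberg) covered every gene that passed this filter. Nothing in the labels ties libraries to separate animals, so *P* values measure the spread between these libraries. Shares and rank descriptions have no test. The fit was tested on simulated data. Alternatives were batch or no covariate in place of SV1, SV1 estimated without mitochondrial genes, other filters, a pseudocount of 100, 1 batch alone, a replicate block and each library left out. Adding nuclear copies to their genes, and leaving out PH 14-day replicate 5 together with SV1, were chosen after seeing the data. Positions and types came from GENCODE M39 on GRCm39, and copies of at least 95% identity and 100 bases were found with blastn 2.17.0. Sequences were read with samtools 1.23.1.

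Named with values were the 13 mRNAs, both rRNAs, the 3 tRNAs with the highest mean over all 33 libraries (*mt-Te* through PH 14-day replicate 5 alone) and called tRNAs, called members of the nuclear lists for maintenance, processing and biogenesis (those of the longer lists are given as counts), and the 5 nuclear protein-coding genes most and least like the mean of the mRNAs. *mt-Ta*, *mt-Tn*, *mt-Tf* and *mt-Tw* and the remaining tRNAs named singly were picked after their values were seen. The genes and lists were chosen with earlier results of these data known.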

Additional observations from a re-analysis of the deposited data

Results flagged for a closer look

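Within the 6 groups of 4 to 6 libraries, 12 measures were examined in 72 group tests, and 11 times the highest library lay farther from its neighbour than Dixon's 95% limit allows. A single such test passes the limit by chance about 1 time in 20. 10 of the 11 were measures of 1 library, replicate 5 of the PH 14-day group, which was known to stand apart when the measures were chosen. They overlap with each other and describe 1 event, so their number is not set against chance. Its mitochondrial share was 33.4% (next highest in the group 13.4%), its mRNA share 31.3% (11.9%) and its tRNA share 0.0785% (0.0220%). *mt-Rnr1* was 476200 (258800), *mt-Rnr2* 1043000 (524200), *mt-Nd6* 666200 (164500), *mt-Co1* 3346000 (1543000), *mt-Nd3* 133900 (62610), *mt-Co2* 1534000 (423200) and *mt-Te* 24800 (1141). The remaining one was the tRNA share of PH intact replicate 1, 0.0228% against 0.0133% in the nearest library of its group.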

How the results depend on the processing

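Depth is unknown and limits what can be said of tRNAs near the floor. In the PH the median change of the 13 mRNAs after 14 days was -0.03, and it was 0.40 with batch in place of SV1 or with no covariate and 0.91 in batch 2 alone. Between 4 months and 14 days it was -0.10, and it was -0.67 in both of the former settings and -1.26 in batch 2 alone. Without replicate 5 of the PH 14-day group the medians were -0.03 and -0.20 with no covariate, and -0.08 and -0.14 with batch in place of SV1 (both chosen after seeing the data). The number of PH genes called between batches was 0 to 18 when each library was left out in turn, with 18 only without that library, and in the POA it was 29 to 33. The median correlation of nuclear respiratory chain subunits with the mean mRNA in the POA was 0.19, and 0.512 with batch removed. No mitochondrial gene was called after OVX in any alternative run. *mt-Tw* and *mt-Tt* lost their POA batch calls and *mt-Ts1* gained one under some of the alternatives. No direction of a called gene reversed. With a replicate block 0 members were called after OVX, and the mRNA medians ran from -0.15 to -0.07 (PH) and from -0.03 to 0.01 (POA). Equal numbers did not pair libraries: 9 of 14 same-number PH pairs and 14 of 16 POA pairs had a correlation over 0.1 (medians 0.154 and 0.255), libraries of other numbers in the same batch had medians of 0.146 and 0.275, and 11 of 28 PH and 9 of 32 POA values were best with their own number. No 2 of the 33 libraries had identical values.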
